A study of Mus musculus with 4 samples.

Results

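The 10 genes described here are brakes on the cell cycle that are linked to senescence, together with the p53 and Rb genes they work beside. They were taken by name from the 32285 genes counted in the series. They are the CIP/KIP inhibitors Cdkn1a, Cdkn1b and Cdkn1c, the INK4 inhibitors Cdkn2a, Cdkn2b, Cdkn2c and Cdkn2d, the stress-responsive transcription factor Trp53, its ubiquitin ligase Mdm2 and the pocket protein Rb1. Single-cell RNA libraries (10x Genomics) were made from ovaries of 8-week-old female mice of a single litter, 2 libraries per genotype. Fosl2F/F mice carry floxed Fosl2 alleles without Cre and are labelled WT by the submitters, whereas Fosl2cKO mice carry the same floxed alleles with Cyp19a1-Cre, a transgene that is active in granulosa cells (GCs) of growing follicles. The loxP sites flank coding exons of Fosl2, a subunit of the AP-1 transcription factor. The smears showed estrus, one operator handled the tissue in parallel, and the group size stated for this experiment equals the number of libraries, while the labels do not say how many animals gave each.

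Cyclin-dependent kinases drive cells through G1, S phase and mitosis. INK4 proteins bind CDK4 and CDK6 and keep them from their D-type cyclins, whereas CIP/KIP proteins bind whole cyclin-kinase complexes. Both brakes keep Rb unphosphorylated, so that Rb holds E2F and the S-phase genes silent. p53 induces Cdkn1a after DNA damage and also induces Mdm2, which returns to mark p53 for degradation. In the ovary CIP/KIP inhibitors are known for the cell cycle exit of luteinizing GCs, and loss of Cdkn1b in mice lets primordial follicles activate early.

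Cells were read as UMIs, that is, as distinct tagged RNA molecules. After filters 41538 of 57109 barcodes remained, 6760 to 19575 per library, with 104303269 to 111314200 UMIs per library. The second Fosl2F/F library had the most cells and the shallowest, with a median of 3655 UMIs per cell against 11177 to 12465 in the others. Summed over all pairs of libraries, 284 cell barcodes were shared. Clustering without the 10 genes gave 25 clusters in 15 classes, of which 13 were called "-like" from their markers and 2 stayed unnamed. The GC-like class held 4575 and 6623 Fosl2F/F cells by library and 2199 and 2384 Fosl2cKO cells. All 8 granulosa markers were detected in it, with a summed level of 10994, 7008, 6327 and 6884 CPM by library, against 789 to 1483 CPM in luteal-like cells. Values by library are always given in the order Fosl2F/F 1, Fosl2F/F 2, Fosl2cKO 1 and Fosl2cKO 2. CPM are a gene's UMIs among 1000000 UMIs of that library in that class, after TMM scaling. Marker sums and some levels listed in the section on processing were not scaled in this way. Fosl2 itself was 170.2, 160.4, 163 and 115 CPM in GC-like cells (log2 fold change -0.25 ± 0.21 SE, edgeR adjusted p = 0.999), so it did not separate the genotypes, and the count does not single out the deleted exons. Genotypes are therefore named as the libraries are labelled.

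On mouse build GRCm38, Cdkn1a spans chr17:29090976-29100727 on the plus strand, Cdkn1b chr6:134920401-134925513 (plus) and Cdkn1c chr7:143458339-143461050 (minus). Cdkn2a (chr4:89274471-89294653, minus) and Cdkn2b (chr4:89306299-89311039, minus) are neighbours, 11646 bases apart. Cdkn2c lies farther along on the same chromosome at chr4:109660876-109667189 (minus), and Cdkn2d is at chr9:21288410-21291407 (minus). Trp53 spans chr11:69580359-69591873 (plus), Mdm2 chr10:117688875-117710758 (minus) and Rb1 chr14:73183673-73325822 (minus). The single Cdkn2a row merges the transcripts of both its products, the INK4 inhibitor and the p53-stabilizing Arf protein.

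Promoter windows of 250 bases before to 50 bases after an annotated start were read from RefSeq on GRCm38.p6 for 8 of the 10 genes, 11 windows in all. Cdkn1c and Rb1 had no window and were not searched for motifs. The 4 printed here belong to Cdkn2c and Cdkn2d, which had the largest log2 differences of the members between GC-like cells rich in and without S or G2/M transcripts, to Cdkn2b, which had its highest mean in luteal-like cells, and to Cdkn1a, the p53 target, and each is written 5′ to 3′ on the strand of the gene. Capitals mark matches to any of the motifs searched, and the coordinates are those of the window.
Cdkn2c (chr4:109666707-109667006, minus): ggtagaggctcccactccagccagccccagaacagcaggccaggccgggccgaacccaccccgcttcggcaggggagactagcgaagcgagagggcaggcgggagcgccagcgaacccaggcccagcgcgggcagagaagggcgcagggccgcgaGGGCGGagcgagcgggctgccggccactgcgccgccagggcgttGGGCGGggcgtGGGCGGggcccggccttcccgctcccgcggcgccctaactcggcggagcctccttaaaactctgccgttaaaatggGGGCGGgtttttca
Cdkn2d (chr9:21291160-21291459, minus): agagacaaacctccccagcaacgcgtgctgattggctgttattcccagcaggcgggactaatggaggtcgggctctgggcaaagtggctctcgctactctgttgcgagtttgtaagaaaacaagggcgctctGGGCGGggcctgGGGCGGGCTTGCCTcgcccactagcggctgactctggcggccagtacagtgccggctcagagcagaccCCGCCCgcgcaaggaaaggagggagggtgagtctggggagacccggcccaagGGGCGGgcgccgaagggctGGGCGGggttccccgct
Cdkn2b (chr4:89310983-89311282, minus): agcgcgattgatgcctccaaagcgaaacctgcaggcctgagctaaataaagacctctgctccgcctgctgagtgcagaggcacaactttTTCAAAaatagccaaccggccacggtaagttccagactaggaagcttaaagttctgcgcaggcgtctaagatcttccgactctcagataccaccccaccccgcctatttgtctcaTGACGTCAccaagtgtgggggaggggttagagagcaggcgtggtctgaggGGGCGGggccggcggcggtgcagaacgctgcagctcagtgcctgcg
Cdkn1a (chr17:29090729-29091028, plus): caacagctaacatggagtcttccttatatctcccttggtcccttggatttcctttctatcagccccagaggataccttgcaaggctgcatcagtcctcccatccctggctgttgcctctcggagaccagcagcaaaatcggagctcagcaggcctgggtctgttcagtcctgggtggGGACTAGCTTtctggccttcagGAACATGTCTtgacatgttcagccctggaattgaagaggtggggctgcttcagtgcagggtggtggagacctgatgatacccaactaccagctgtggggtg
The printed Cdkn2c window is 73.3% G and C, the Cdkn2d window 66.3%, the Cdkn2b window 57.7% and the printed Cdkn1a window 54.7%, against a median of 52.7% over all windows. Cdkn2c and Cdkn1a each had a second window, not printed, of 44.0% and 64.7% G and C. The second Cdkn2c window held no motif match, and the second Cdkn1a window held only SP1 matches.

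Motifs were searched on both strands, and a match is a description of letters only. The AP-1 letters TGANTCA, which a Fosl2 dimer can bind, occurred in none of the 11 windows, against 7.81% of all 32851 promoter windows. The SP1 letters GGGCGG occurred in 8 of the 11 windows, against 35.7% of all. The printed Cdkn2c window held them at -95, -51, -40 and +37 from the start, and the Cdkn2d window at -118, -106, -38, +15 and +34. The p53 half-site was found in 4 windows, against 8.36% of all, including Cdkn1a at -73 and -51, Mdm2 at -186, Trp53 at -75 and Cdkn2d at -102, where it overlaps an SP1 match. Of the E2F letters TTTNNCGC (5.17% of all windows), 3 windows held a match, 2 of Cdkn2a and 1 of Mdm2, and the Mdm2 match overlaps the only match to the FOXO letters GTAAACA (3.65% of all). Cdkn2b alone held the CRE letters TGACGTCA, at -46 (1.79% of all), and the CHR letters TTTGAA, at -161 (17.9% of all).

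Across the ovary the 10 genes differed in where they were highest. These levels describe classes within the same 4 libraries, so no test was made between classes. Among the CIP/KIP genes, Cdkn1a (p21) was highest in dendritic-like cells at 205 ± 36.7 CPM (SD, n = 4), with macrophage-like, epithelial-like and luteal-like cells close behind at 197, 191 and 187 CPM. GC-like cells stood 14th of 15 for Cdkn1a, at 17.2 ± 9.64 CPM (SD, n = 4). Cdkn1b (p27) was highest in luteal-like cells, with 157, 469, 347 and 509 CPM, and in an unnamed class led by Abcb1b and Dync1i1, with 293, 287, 396 and 375 CPM. Both of those classes were above the Cdkn1b level of macrophage-like cells, the lowest, at 49.1 ± 20.03 CPM (SD, n = 4). Cdkn1c (p57), an imprinted inhibitor, had its highest mean in macrophage-like cells at 33.9 ± 40.0 CPM (SD, n = 4), a mean carried by 1 cell in each Fosl2cKO library, and its lowest in dendritic-like cells at 1.05 CPM. Without the cell of most Cdkn1c UMIs in each library the macrophage-like mean was 9.15 CPM, under the 18.9 CPM of stromal-like cells with no cell left out.

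The INK4 genes differed from each other in where they were highest. Cdkn2b (p15) had its highest mean in luteal-like cells, at 92.4 ± 118 CPM (SD, n = 4), and had no UMI in lymphatic endothelial-like or dendritic-like cells. Cdkn2c (p18) was highest in theca-like cells, with 124, 83.4, 115 and 129.8 CPM, and lowest in luteal-like cells, with 4.32, 12.6, 14.1 and 10.8 CPM. The Cdkn2b mean of luteal-like cells was carried by the Fosl2F/F libraries, and in the second Fosl2cKO library their level, 2.95 CPM, was under the 10.3 CPM of stromal-like cells. Cdkn2d (p19) was highest in NK or T-like cells, with 79.5, 48.9, 61.3 and 69.7 CPM, and lowest in epithelial-like cells at 11.9 ± 4.67 CPM (SD, n = 4). Cdkn2a had its highest mean, 15.2 CPM, in oocyte-like cells, and no UMI in B lymphocyte-like cells. The oocyte-like class was too small to be tested, with 29, 86, 22 and 19 cells and 63821 to 382829 UMIs by library.

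Trp53 was highest in GC-like cells at 207 ± 23.1 CPM (SD, n = 4) and lowest in macrophage-like cells at 80.7 ± 10.7 CPM (SD, n = 4). Mdm2 instead had its highest mean in macrophage-like cells, 199.99, 148, 236 and 146 CPM by library. Its lowest mean was not in GC-like cells but in the unnamed class led by Asb4 and Tmem100, 69.0 ± 7.46 CPM (SD, n = 4). Rb1 had its highest mean in B lymphocyte-like cells at 151 ± 107 CPM (SD, n = 4), a class of only 48, 22, 27 and 45 cells by library. Its lowest mean was in the same Asb4 and Tmem100 class at 45.8 ± 7.58 CPM (SD, n = 4). When the 15 classes were put in order, neighbouring classes overlapped between libraries in 14 of 14 pairs for 7 of the genes and in 13 of 14 for Cdkn1b, Cdkn2a and Cdkn2b, so most steps of each order lay within the spread between libraries.

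**Figure D1:**
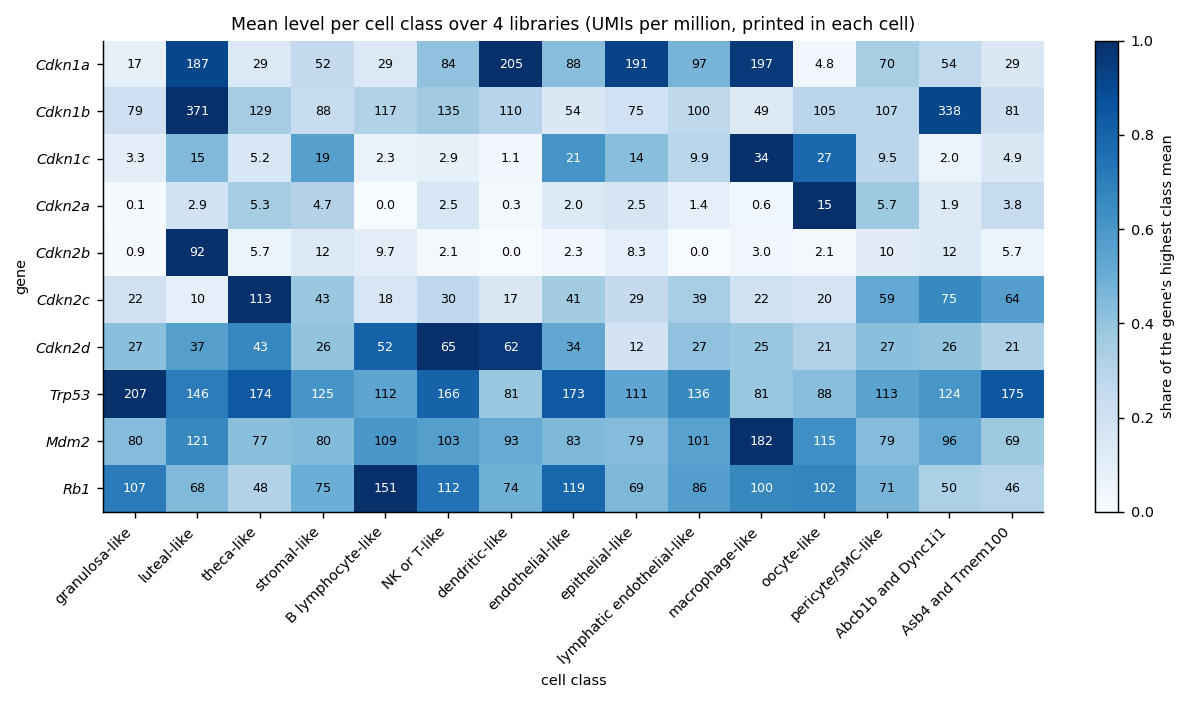
Mean level of each of the 10 genes in the 15 classes, in CPM averaged over the libraries, with the value printed in each cell and the colour giving its share of the gene's highest class mean. The highest mean of Cdkn2b is in luteal-like cells (92.4, carried by the Fosl2F/F libraries), that of Cdkn2c in theca-like cells (113) and that of Trp53 in GC-like cells (207), and Cdkn1a is low in GC-like cells (17.2).

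Genes whose class pattern was most like that of each member were ranked by Pearson's r of log2 CPM over 25 classes and GC subclasses, among 12505 genes. The classes share libraries and depth, so r is a description. Cdkn1a followed Anxa1 (r = 0.932), Tapbp (0.920) and Tspo (0.913). Cdkn2b followed Timp1 (0.896), Nr1h4 (0.870) and Plekhf1 (0.851), and Cdkn2a followed Afap1l2 (0.893), Gm13269 (0.866) and Mmp2 (0.856). Trp53 followed Fkbp3 (0.918), Cbx3 (0.918) and Ddx1 (0.910), and Mdm2 followed Osbpl8 (0.845), Atp6v1c1 (0.821) and Slc35f6 (0.803). Cdkn1b came nearest to Wnt10a (0.837), Ccn5 (0.826) and Wnt10b (0.824), and Rb1 to Myo1e (0.819), Pou2f1 (0.8003) and Sfmbt1 (0.781). Cdkn1c came nearest to Tgfb2 (0.811), Scoc (0.7997) and Mapk3 (0.798), and Cdkn2c to Slc29a1 (0.740), Vgll3 (0.738) and Fat3 (0.731). Cdkn2d had the lowest values, with Med11 (0.673), Hist1h4i (0.634) and Cenpl (0.620).

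Within GC-like cells, which fell into 11 subclasses, Cdkn2c and Cdkn2d were highest in the mitotic-like ones. Cdkn2d was highest in the mitotic-like Ube2c subclass, with 83.4, 53.2, 51.1 and 59.1 CPM, and was 45.6, 41.7, 35.4 and 29.3 CPM in the mitotic-like Top2a subclass. Its lowest levels were in cumulus-like cells, which surround the oocyte, at 10.2, 8.43, 9.04 and 5.94 CPM, and the ranges of these subclasses did not overlap. Cdkn2c was likewise highest in the Ube2c subclass, with 52.2, 35.4, 54.0 and 72.1 CPM, and lower in cumulus-like cells, with 7.43, 9.44, 7.16 and 7.71 CPM. Trp53 was highest in the mitotic-like Top2a subclass at 256 ± 24.2 CPM (SD, n = 4) and lowest in an unnamed subclass led by Dgkb and Rrad at 143 ± 36.6 CPM (SD, n = 4), which has 206 cells. No fixed GC subclass marker was among the leading genes of that subclass, Asb4 and Dync1i1 also lead the unnamed classes outside the GCs, and its granulosa marker sum was 1941, 1415, 1945 and 1711 CPM, well under that of all GC-like cells. Whether these cells are GCs was not tested, and levels that are highest or lowest there are given with that limit.

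Cdkn1a took the opposite order to Trp53 at these ends. It was highest in the Dgkb and Rrad subclass, with 77.2, 46.5, 40.7 and 50 CPM, and lowest in the mitotic-like Top2a subclass, with 7.17, 8.38, 7.81 and 10.2 CPM, and the ranges did not overlap. Among the other subclasses the mean was highest in mural-like Lhcgr cells, at 27.2 ± 20.8 CPM (SD, n = 4). Cdkn1b was also highest in the Dgkb and Rrad subclass at 147 ± 84.2 CPM (SD, n = 4) and lowest in a subclass led by Cited1 and Amh at 52.3 ± 15.2 CPM (SD, n = 4). Mdm2 ranged only from 61.7 CPM in the Pecam1 and Gipc2 subclass to 96.5 CPM in mural-like Lhcgr cells, which line the antral follicle wall. Rb1 ranged from 78.3 to 151 CPM, the latter in a shallow subclass led by Gm26917 and Igkc with a median of 2262 UMIs per cell. Cdkn2a had at most 2 UMIs per subclass and library and gives no order. In the order of subclasses, neighbours overlapped in 10 of 10 pairs for every gene except Cdkn2d, for which 2 of 10 pairs lay apart.

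**Figure D2:**
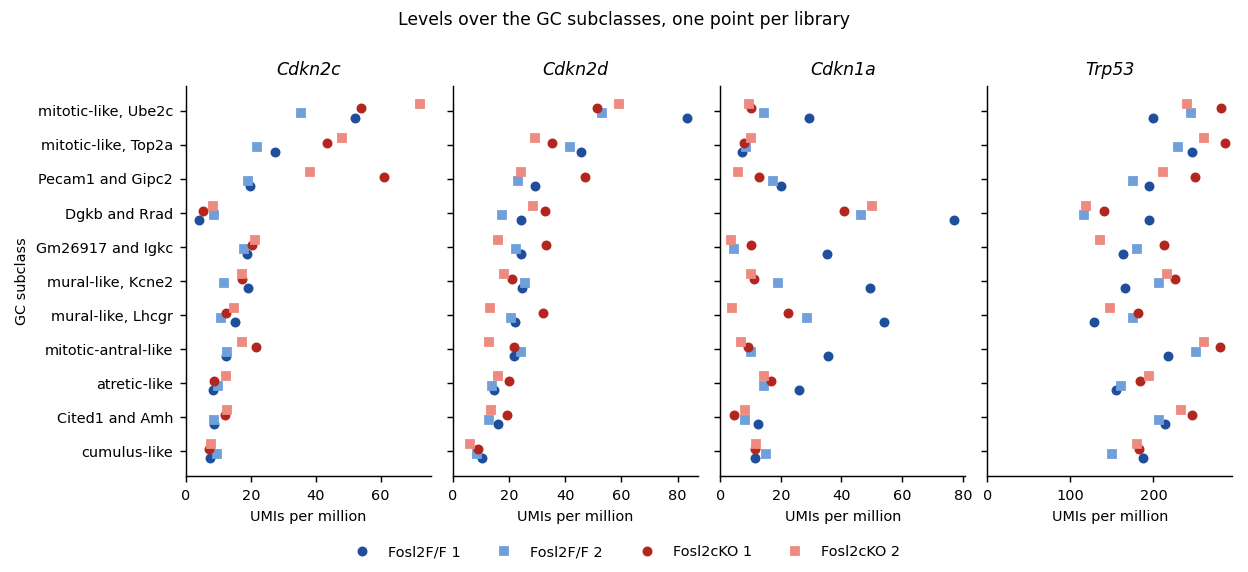
Level in CPM of Cdkn2c, Cdkn2d, Cdkn1a and Trp53 in the 11 GC subclasses, 1 point per library, coloured by genotype. Cdkn2c and Cdkn2d are highest in the mitotic-like Ube2c subclass (means 53.4 and 61.7), and Cdkn1a is highest in the Dgkb and Rrad subclass (53.6), whose granulosa marker sum is low.

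A second view of GC states asked how the 10 genes differ between GC-like cells rich in S or G2/M transcripts and GC-like cells with none. Lists of 15 S-phase and 18 G2/M genes, none of them among the 10, were counted among 2000 UMIs drawn from each cell. The 6198 cells with 3 or more such UMIs were compared with the 3997 cells with 0, summed per library, and 14974 of 15781 GC-like cells were deep enough to be placed. At the limit itself, 2648 cells had 2 or 3 such UMIs. This split moved much of the transcriptome, since 51.7% of the 15043 genes tested passed (adjusted p under 0.1 and a log2 difference over 0.25 in size). Of the 9 genes tested here 7 passed, and 4 of these were higher and 3 lower in the rich cells.

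Cdkn2c was higher in the rich cells. Its level was 10.6, 7.35, 7.55 and 7.98 CPM in cells with none and 33.9, 23.8, 39.8 and 43.3 CPM in rich cells, a log2 difference of 1.98 ± 0.14 (SE, edgeR adjusted p = 7.97e-07). Cdkn2d, which is known to be made periodically through the cell cycle, went from 17.7, 11.4, 18.8 and 12.1 CPM to 53.9, 37.6, 37.9 and 32.4 CPM, a log2 difference of 1.38 ± 0.11 (SE, edgeR adjusted p = 2.43e-06). For both genes every library was higher in rich cells and the states did not overlap. Single subclasses were compared only where every library had cells of both states. This left out the mitotic-like Ube2c, the mitotic-like Top2a, and the Dgkb and Rrad subclasses. Within single subclasses Cdkn2c was higher in the rich cells of 4 of 4 libraries in the atretic-like (mean 8.04 to 13.7 CPM), cumulus-like (6.63 to 12.8 CPM) and mural-like Lhcgr cells (9.02 to 21.7 CPM). It was higher in 3 of 4 libraries in the mitotic-antral-like (9.77 to 18.0 CPM), mural-like Kcne2 (12.9 to 17.1 CPM) and Cited1 and Amh cells (10.8 to 12.5 CPM). Cdkn2d was less even within subclasses. It was higher in 2 of 4 libraries in cumulus-like cells (8.15 to 9.43 CPM), mural-like Lhcgr cells (22.9 to 24.9 CPM) and the Cited1 and Amh subclass (16.5 to 16.1 CPM), and in 3 of 4 in atretic-like (15.6 to 19.6 CPM), mitotic-antral-like (16.9 to 21.7 CPM) and mural-like Kcne2 cells. In the subclasses with 4 or fewer Cdkn2d UMIs in cells with none, it was higher in 4 of 4 libraries (Pecam1 and Gipc2, 8.94 to 32.1 CPM) and in 3 of 4 (Gm26917 and Igkc, 6.05 to 23.4 CPM).

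Trp53 rose from 154, 152, 179 and 175 CPM to 215, 235, 282 and 249.2 CPM, a log2 difference of 0.51 ± 0.06 (SE, edgeR adjusted p = 5.8e-05), higher in all 4 libraries and without overlap. Within mural-like Kcne2 cells, however, the mean was 209 CPM in cells with none and 207 CPM in rich cells (higher in 2 of 4 libraries). Rb1, itself a target of the kinases, went from 73.1, 112, 97.7 and 91.3 CPM to 104, 136, 136 and 114 CPM, a log2 difference of 0.34 ± 0.06 (SE, edgeR adjusted p = 0.00122). It was higher in 4 of 4 libraries although the ranges of the states overlap. Within subclasses Rb1 was lower on average in the rich mural-like Kcne2 (94.0 to 91.1 CPM), mitotic-antral-like (125 to 108 CPM) and Pecam1 and Gipc2 cells (116 to 78.4 CPM, the first from 26 UMIs). Cdkn1a fell in the rich cells, from 33.9, 15.2, 15.5 and 12.6 CPM to 25.1, 13.0, 9.67 and 8.94 CPM, a log2 difference of -0.51 ± 0.10 (SE, edgeR adjusted p = 0.00108). Each library was lower, but the first Fosl2F/F library was above the other 3 in both states. Within subclasses Cdkn1a was lower in the rich cells of 4 of 4 libraries in mural-like Kcne2 cells (mean 27.9 to 14.5 CPM). In the shallow Gm26917 and Igkc subclass (12.1 to 6.03 CPM, from 8 and 10 UMIs), Cdkn1a was higher in the rich cells of no library. These UMIs are too few for a direction in each library. Cdkn1a was higher in 3 of 4 libraries in mitotic-antral-like cells (13.1 to 15.0 CPM) and in the Pecam1 and Gipc2 subclass (5.94 to 13.3 CPM, from 5 and 49 UMIs), and in 2 of 4 in mural-like Lhcgr cells (24.1 to 25.5 CPM), so the lower level did not hold in each subclass. The part of the make-up of subclasses in both states was not tested.

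Cdkn1c passed in the lower direction with a log2 difference of -0.66 ± 0.23 (SE, edgeR adjusted p = 0.0319), from 2.10, 1.66, 3.24 and 12.1 CPM to 1.61, 1.28, 3.45 and 4.93 CPM. This call turned on the second Fosl2cKO library, since without it the log2 difference was -0.24 with an adjusted p of 0.433. Cdkn2b passed at a mean of 1.07 CPM in cells with none and 0.634 CPM in rich cells, a log2 difference of -0.73 ± 0.32 (SE, edgeR adjusted p = 0.0776), was higher in the rich cells of 1 of 4 libraries, and lost the call in each of the 3 fits without 1 library in which it was still tested. Cdkn1b (0.03 ± 0.07 SE, edgeR adjusted p = 0.766) and Mdm2 (-0.16 ± 0.07 SE, edgeR adjusted p = 0.0562) did not pass, and Cdkn2a had too few UMIs to be tested.

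When rich cells were divided by the list that gave more of their UMIs, Cdkn2c was 19.7 ± 4.30 CPM in S-list cells and 44.6 ± 12.1 CPM in G2/M-list cells (SD, n = 4). Cdkn2d showed the same order, with 21.6 ± 5.86 CPM and 51.1 ± 12.7 CPM (SD, n = 4). Trp53 had nearly the same level in both, 235 ± 24.3 CPM and 244 ± 30.7 CPM, as did Cdkn1a at 13.0 ± 8.60 CPM and 14.5 ± 7.26 CPM (SD, n = 4). The share of rich cells among GC-like cells was 33.5% and 43.3% for Fosl2F/F and 47.3% and 46.0% for Fosl2cKO. Both Fosl2cKO shares lay above both Fosl2F/F shares, with means of 46.7% and 38.4%. A two-sided exact permutation test gave p = 0.333, the smallest that 2 against 2 libraries allow, so it could not decide.

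**Figure D3:**
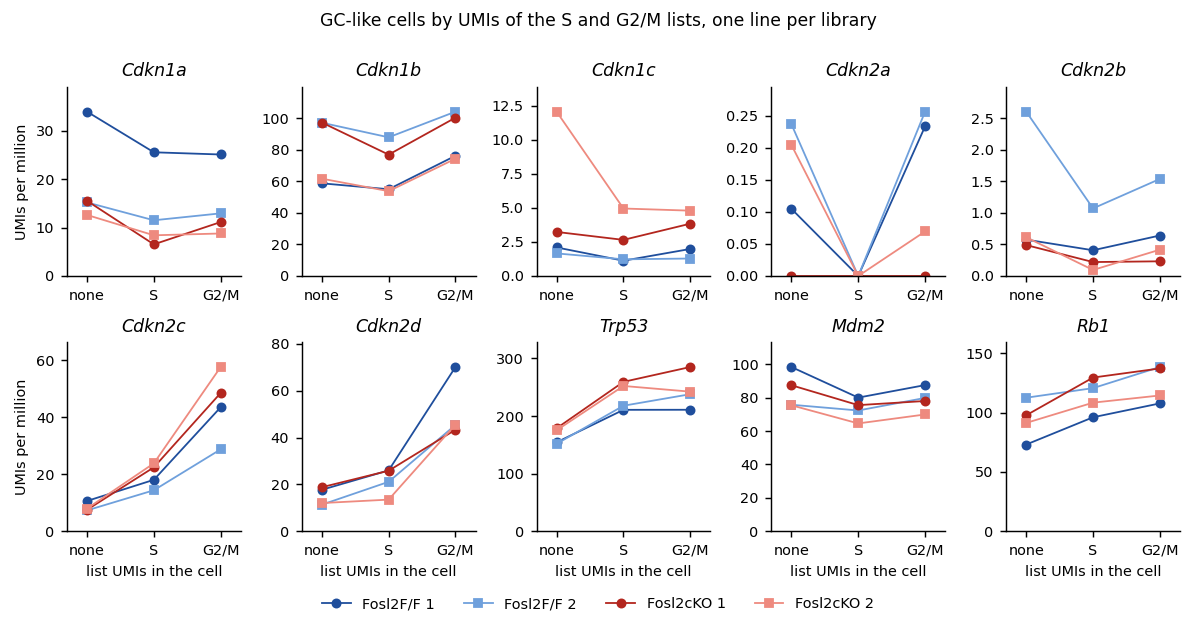
Level in CPM of each of the 10 genes in GC-like cells with no list UMI, cells rich in S-list UMIs and cells rich in G2/M-list UMIs, 1 line per library. Cdkn2c climbs in every library towards G2/M-list cells (mean 44.6 against 8.38 in cells with none), as does Cdkn2d (51.1 against 15.0), whereas Cdkn1a is lower in rich cells (14.2 against 19.3).

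Genes that work beside these inhibitors were counted in the same split, in which 3803 of the 15043 genes tested were higher and 3976 lower. Of 28 cyclins, CDKs, pocket proteins and E2F genes tested, 23 were higher and 2 lower in rich cells, led by Ccnb1 (log2 difference 5.47), E2f8 (5.32), Ccna2 (5.25) and Cdk1 (4.26), and Ccnb1 and Cdk1 are also in the G2/M list. Of 26 p53 target genes, 4 were higher and 10 lower, and the lower ones included the death receptor Fas (-1.40), Trp53inp1 (-1.07), Btg2 (-0.94) and Gadd45a (-0.79). Of 23 upstream regulators 4 were higher, among them the checkpoint kinases Chek1 (2.15) and Chek2 (1.99) and the Polycomb methyltransferase Ezh2 (1.59), and 9 were lower, among them Ets1 (-1.50). Of 40 senescence and secretory genes 9 were higher and 15 lower, with Hmgb2 (2.75) and Lmnb1 (1.62), chromatin and lamina genes, at one end and the plasminogen activators Plau (-1.54) and Plat (-1.45) at the other. Apart from the cyclin list, the shares that passed in these lists were near the 51.7% of all genes, so nothing is read from them about the lists.

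The question of the knockout was asked first in GC-like cells as a whole, the class that the Cre transgene targets. Here Cdkn1a was lower and Cdkn1c and Cdkn2c were higher in both Fosl2cKO libraries than in both Fosl2F/F libraries, but no member passed the test over all genes. edgeR called 1 of 17259 genes (0.00579%), Plb1, named here after its values were seen. Of the 9 members tested 0 passed and 4 had an unadjusted p under 0.05, whereas DESeq2 called 1, Cdkn1c, among 171 genes (0.991%). The median log2 fold change of the members, Fosl2cKO over Fosl2F/F, was 0.03 against -0.02 for all genes, of which 820 had an unadjusted p under 0.05. Counts were summed over cells, and p-values measure the spread between these libraries only.

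Cdkn1a was 31.5, 14.3, 12.3 and 10.6 CPM, a log2 fold change of -0.99 ± 0.36 (SE, edgeR adjusted p = 0.999). Both Fosl2cKO libraries were lowest, though the Fosl2F/F libraries differed from each other by more than the second differed from them. The difference of the means was within the spread of the control libraries, and the log2 fold change was -0.33 without the first Fosl2F/F library and -1.42 without the second. Mural-like Lhcgr cells, in which Cdkn1a was higher than in most subclasses, made up 22.3%, 7.25%, 11.4% and 5.45% of GC-like cells by library. The summed level of the 6 mural markers was 3846, 1444, 1188 and 1225 CPM. The part of this make-up in the Cdkn1a difference was not tested. Cdkn1c was 1.85, 1.253, 3.59 and 6.68 CPM, from 125, 50, 184 and 320 UMIs, a log2 fold change of 1.72 ± 0.40 (SE, edgeR adjusted p = 0.667). The groups did not overlap, DESeq2 gave an adjusted p of 0.0173, and without the 10 highest cells of each library the values were 1.47, 1.02, 3.15 and 4.96 CPM. Thinned cells showed a Cdkn1c UMI in 0.428%, 0.314%, 0.655% and 1.07% of GC-like cells (unthinned 2.51%, 0.74%, 7.23% and 9.56%, median UMIs 13685, 4581, 19192 and 18303.5). In NK or T-like cells, taken as cells that should lack it, the thinned shares were 0.617%, 0%, 0.356% and 0.565% (median UMIs 3097, 1359, 3181.5 and 3452.5). These shares rest on at most 1 thinned cell per library, too few to set a background level, and the shares in GC-like cells are low in all libraries.

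Cdkn1b was 61.4, 93.7, 93.3 and 65.6 CPM in GC-like cells, a log2 fold change of 0.03 ± 0.28 (SE, edgeR adjusted p = 0.999), and its groups overlapped. Cdkn2c was 20.7, 15.5, 25.0 and 28.1 CPM, higher in both Fosl2cKO libraries, a log2 fold change of 0.55 ± 0.20 (SE, edgeR adjusted p = 0.999). Cdkn2d was 32.6, 24.1, 28.5 and 23.5 CPM, with overlapping groups and a log2 fold change of -0.12 ± 0.21 (SE, edgeR adjusted p = 0.999). Cdkn2b was near its limit of detection here, at 55, 72, 22 and 19 UMIs or 0.814, 1.80, 0.429 and 0.396 CPM, a log2 fold change of -1.65 ± 0.52 (SE, edgeR adjusted p = 0.989). Cdkn2a gave 9, 8, 1 and 4 UMIs and was not tested.

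Trp53 was 181, 194, 231 and 220.3 CPM, slightly higher in both Fosl2cKO libraries, a log2 fold change of 0.27 ± 0.16 (SE, edgeR adjusted p = 0.999). Mdm2, which p53 induces, was 91.3, 76.7, 80.5 and 70.3 CPM with overlapping groups and a log2 fold change of -0.15 ± 0.17 (SE, edgeR adjusted p = 0.999). Rb1 was 87.9, 120.5, 117 and 104 CPM, also overlapping, with a log2 fold change of 0.08 ± 0.21 (SE, edgeR adjusted p = 0.999). For all genes counted in GC-like cells, both Fosl2cKO libraries were higher than both Fosl2F/F libraries in 15.9% and lower in 15.9%. The members higher without overlap were Cdkn1c, Cdkn2c and Trp53 and the members lower were Cdkn1a, Cdkn2a and Cdkn2b.

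**Figure D4:**
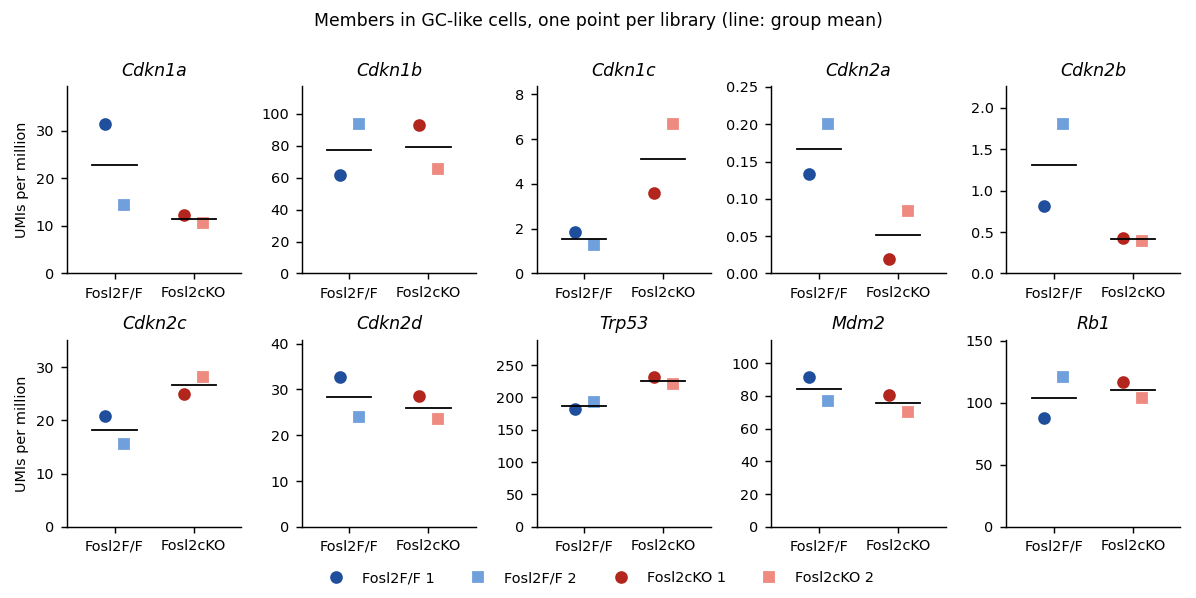
Level in CPM of each of the 10 genes in GC-like cells, 1 point per library with a line at the mean of each genotype. Cdkn1c lies higher (3.59 and 6.68 against 1.85 and 1.253) and Cdkn1a lower (12.3 and 10.6 against 31.5 and 14.3) in the Fosl2cKO libraries.

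Genes that work beside the members did not pass in GC-like cells either. edgeR called 0 of 26 p53 targets, 0 of 28 cyclin, CDK, pocket protein and E2F genes, 0 of 23 upstream regulators and 0 of 45 senescence and secretory genes, with 3, 5, 0 and 3 at an unadjusted p under 0.05, and DESeq2 called 2 of them in all, Igfbp2 and Mmp12, among its 171 genes (0.991%). Their median log2 fold changes were -0.10, 0.17, 0.18 and -0.07. The 15 S-list genes had a median of 0.32 and the 18 G2/M genes 0.23, with 0 passed and 4 and 1 at an unadjusted p under 0.05. In the first 2 lists the lowest p-values were those of Ei24 (29.3, 29.1, 40.6 and 41.4 CPM, log2 fold change 0.49) and the p53 phosphatase Ppm1d (16.0, 16.8, 21.2 and 33.1 CPM, 0.73), of E2f6 (14.2, 17.4, 31.6 and 24.1 CPM, 0.82) and cyclin E1, Ccne1 (5.83, 6.42, 9.84 and 11.8 CPM, 0.82). In the next 2 they were those of the signal transducer Smad4 (95.4, 91.6, 115 and 124 CPM, 0.36), of Igfbp2 (12.7, 14.5, 47.2 and 72.8 CPM, 2.14, adjusted p = 0.353) and of the metalloprotease Mmp12 (0.222, 0.351, 1.75 and 1.27 CPM, 2.42, adjusted p = 0.476), which is also a leading gene of the macrophage-like cluster and passed as higher in macrophage-like cells (2.95, edgeR adjusted p = 0.0245). The part of macrophage RNA in its GC-like level was not tested. In the S and G2/M lists they were those of the nuclease Exo1 (17.6, 18.9, 26.0 and 27.5 CPM, 0.55) and the mitotic kinase Plk1 (24.7, 25.7, 38.0 and 31.3 CPM, 0.46). Each of these 9 genes was higher in both Fosl2cKO libraries, against 15.9% of all genes. They were picked by their p in the same libraries, so nothing is read from that count. No edgeR adjusted p among them was under 0.1 in GC-like cells. Among single subclasses, Igfbp2, which encodes a binding protein of insulin-like growth factors, passed in mural-like Lhcgr cells (log2 fold change 2.47 ± 0.26 SE, edgeR adjusted p = 0.0733) and in the Pecam1 and Gipc2 subclass (2.64 ± 0.42 SE, edgeR adjusted p = 0.0504).

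The 11 GC subclasses were then tested one by one, and edgeR called 0.0244% of their 123037 gene tests. Of the 83 member tests 0 passed and 15 had an unadjusted p under 0.05, against 5.99% of all gene tests. The 15 were 6 tests of Cdkn1c, 5 of Cdkn1a, 3 of Cdkn2c and 1 of Cdkn2b. They reuse the same 4 libraries and are not independent of each other. DESeq2 called 0.537% of the gene tests and 1 member, Cdkn1a in mural-like Kcne2 cells, where it called 0.777% of 11833 genes. In these cells Cdkn1a was 49.4, 19.2, 11.2 and 10.1 CPM, a log2 fold change of -1.69 ± 0.42 (SE, edgeR adjusted p = 0.418), which ran from -2.19 without the second Fosl2F/F library to -0.85 without the first. In mural-like Lhcgr cells it was 54.1, 28.5, 22.5 and 3.84 CPM (-1.55 ± 0.60 SE, edgeR adjusted p = 0.999), and in mitotic-antral-like cells 35.7, 10.3, 9.31 and 6.998 CPM (-1.51 ± 0.55 SE, edgeR adjusted p = 0.49). In mitotic-antral-like cells the log2 fold change was -2.10 without the second Fosl2F/F library and -0.35 without the first. Without the first Fosl2cKO library, the higher one, the log2 fold change in mural-like Lhcgr cells was -3.42, and without the second it was -0.90. Each of these fits left 1 Fosl2cKO library, and the second of them held only 130 cells of this subclass. The mural marker sum there was 9791, 5691, 4794 and 5494 CPM, highest in the same library as Cdkn1a, and its part in the difference was not tested. Both Fosl2cKO libraries were below both Fosl2F/F libraries for Cdkn1a in 5 of 11 subclasses, against 12.9% to 17.3% of all genes per subclass. Cumulus-like cells had 11.4, 15.2, 11.6 and 11.7 CPM, with no such gap.

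Cdkn1c was higher in both Fosl2cKO libraries in 8 of the 10 subclasses with at least 10 UMIs, against 14% to 22.5% of all genes per subclass. It was 0.495, 1.004, 4.27 and 3.53 CPM in cumulus-like cells, a log2 fold change of 2.27 ± 0.54 (SE, edgeR adjusted p = 0.292), and 0.925, 0.541, 2.74 and 4.78 CPM in mitotic-like Top2a cells (2.26 ± 0.61 SE, edgeR adjusted p = 0.684). In both of these subclasses Cdkn1c met the count filter only through the Fosl2cKO libraries, a limit on its p-values there. Cdkn2c was higher in 6 of 11 subclasses, with 27.3, 21.9, 43.3 and 48.1 CPM in mitotic-like Top2a cells (0.86 ± 0.21 SE, edgeR adjusted p = 0.645) and 19.6, 19.2, 60.9 and 38.1 CPM in the Pecam1 and Gipc2 subclass (1.31 ± 0.38 SE, edgeR adjusted p = 0.388). Trp53 was higher without overlap in 7 of 11 and Mdm2 lower in 5 of 11 subclasses. All subclasses come from the same 4 libraries.

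Outside the GC-like class, members differed widely between libraries in luteal-like cells, the progesterone-making cells of the corpus luteum. Here Cdkn2b and Cdkn2a were lower and Cdkn1c higher in both Fosl2cKO libraries, at levels that were uneven within each genotype. Cdkn2b was 257, 96.5, 12.8 and 2.95 CPM, from 893, 1466, 92 and 20 UMIs, a log2 fold change of -4.52 ± 0.84 (SE, edgeR adjusted p = 0.251). Cdkn2a was 8.07, 3.29, 0.279 and 0.147 CPM, from 28, 50, 2 and 1 UMIs (-4.61 ± 0.88 SE, edgeR adjusted p = 0.251). Cdkn1c was 0.288, 1.12, 9.199 and 49.8 CPM, from 1, 17, 66 and 338 UMIs (5.06 ± 0.99 SE, edgeR adjusted p = 0.261). The groups did not overlap for any of the 3 genes. Of all genes counted in this class, 27.7% were higher and 17.5% lower without overlap. None passed in edgeR, which called 2 of 12847 genes (0.0156%), Plb1 and Gm36840, named after their values were seen, whereas DESeq2, which called 3.55% of the genes, gave adjusted p-values of 1.24e-07, 0.00761 and 5.87e-06. Cdkn2a met the count filter only through the Fosl2F/F libraries and Cdkn1c only through the Fosl2cKO libraries, a limit on all of their p-values. Without 1 library the log2 fold change ran from -5.95 to -3.59 for Cdkn2b, from -5.14 to -3.85 for Cdkn2a and from 3.46 to 6.53 for Cdkn1c. The log2 fold change without the first Fosl2cKO library, a fit with 1 Fosl2cKO library, was -5.95 for Cdkn2b and 5.82 for Cdkn1c. Cdkn1a in the same cells was 276, 180.0, 141 and 153 CPM (-0.66 ± 0.34 SE, edgeR adjusted p = 0.509).

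The luteal-like class was not made up alike in the libraries. It joins a cluster led by Akr1c18 and Onecut2, with 114, 342, 15 and 32 cells, and a cluster led by Ces2a and Hsd17b7, with 60, 901, 317 and 275 cells. The sum of the 6 luteal markers, all detected, was 6427 to 12751 CPM in Fosl2F/F and 1985 to 3737 CPM in Fosl2cKO libraries. Fits within each cluster were added after the data were seen, and edgeR called 11.3% of 10524 genes in the Akr1c18 cluster and 0.016% of 12520 in the Ces2a cluster. In the Akr1c18 cluster, where the first Fosl2cKO library has fewer than the 20 cells asked for elsewhere, Cdkn2b was 258, 408, 125 and 9.46 CPM (log2 fold change -2.47, edgeR adjusted p = 0.0032) and Cdkn1c 0.294, 0.307, 46.7 and 83.6 CPM (7.47, adjusted p = 1.86e-09). With 0.294 and 0.307 CPM in the Fosl2F/F libraries, Cdkn1c passed the count filter there only through the Fosl2cKO libraries. Those held 15 and 32 cells, so nothing is read from its p-value. Cdkn2a had 26, 49, 0 and 0 UMIs there, so no fold is given. In the Ces2a cluster Cdkn2b was 137, 10.6, 6.67 and 2.40 CPM (-3.47, adjusted p = 0.931), the first value from 17 UMIs, and Cdkn1c was 0, 1.24, 7.28 and 48.9 CPM (4.36, adjusted p = 0.746). Cdkn2a had 2, 1, 2 and 1 UMIs in the Ces2a cluster, too few for a direction. The part of the cluster make-up and of the marker sums in the difference of the whole class was not tested.

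In luteal-like cells thinned to 2000 UMIs, 33.1%, 14.7%, 1.56% and 0% held a Cdkn2b UMI (unthinned 59.8%, 27.3%, 9.94% and 5.54%). Dendritic-like cells had Cdkn2b in 0 of 71, 180, 93 and 79 cells, which allows shares of cells with a UMI of up to 4.23%, 1.67%, 3.23% and 3.80% at median depths of 8231, 2448, 9013 and 7726 UMIs. That class was taken because it had no Cdkn2b UMI, and cells without a UMI may still express the gene.

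Macrophage-like cells gave the only member that passed among 118 member tests in 14 classes, Cdkn1c. Its level was 0.735, 2.31, 83.7 and 48.7 CPM, from 1, 4, 296 and 91 UMIs, a log2 fold change of 5.31 ± 0.53 (SE, edgeR adjusted p = 0.0148), where edgeR called 0.166% of 9629 genes. These UMIs sat in few cells. A Cdkn1c UMI was found in 1 of 201, 4 of 582, 20 of 320 and 8 of 208 cells, and single cells of the Fosl2cKO libraries held up to 187 and 84 of their UMIs. With 1 and 4 UMIs in the Fosl2F/F libraries, the gene passed the count filter only through the Fosl2cKO libraries. Without the highest cell of each library, an alternative added after the data were seen, 0, 3, 109 and 7 UMIs remained (0, 1.73, 31.1 and 3.79 CPM) and Cdkn1c no longer had enough UMIs to be tested, so no call could be made without those cells.

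In the other 11 classes together edgeR called 0.108% of 113535 gene tests and no member passed, while over all 14 classes 17 of the 118 member tests had an unadjusted p under 0.05, against 5.34% of all gene tests. Of these 17 tests, 8 were of Cdkn1c, and all classes come from the same 4 libraries. Stromal-like cells had Cdkn1c at 8.33, 11.5, 28.1 and 27.9 CPM (1.46 ± 0.33 SE, edgeR adjusted p = 0.144, DESeq2 adjusted p = 0.0606, where it called 0.298% of genes), Cdkn2a at 9.81, 4.01, 2.19 and 2.76 CPM (-1.48 ± 0.50 SE, edgeR adjusted p = 0.634) and Cdkn2b at 22.2, 9.68, 5.48 and 10.3 CPM (-1.02 ± 0.42 SE, edgeR adjusted p = 0.983). In epithelial-like cells Cdkn1c was 10.7, 4.91, 22.7 and 19.4 CPM (1.49 ± 0.43 SE, edgeR adjusted p = 0.49), and in the Asb4 and Tmem100 class 2.11, 2.75, 7.87 and 7.05 CPM (1.58 ± 0.40 SE, edgeR adjusted p = 0.356). Endothelial-like cells were the exception, with 31.6, 10.4, 11.8 and 28.5 CPM (0.09 ± 0.50 SE, edgeR adjusted p = 1). Pericyte or smooth muscle-like cells had Cdkn2a at 4.09, 13.2, 2.76 and 2.56 CPM (-1.77 ± 0.59 SE, edgeR adjusted p = 0.999), with both Fosl2cKO libraries lowest. Without 1 library that log2 fold change ran from -2.32 to -0.64.

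Counted over classes with at least 10 UMIs, Cdkn1c was higher in both Fosl2cKO libraries in 11 of 12 classes, against 18.2% of all gene and class pairs. Its log2 fold change ran from 0.09 to 5.31 over the 10 classes tested, with a median of 1.48 and 8 at an unadjusted p under 0.05. Cdkn2a was lower without overlap in 5 of 9 classes, Cdkn2b in 5 of 10 and Cdkn1a in 3 of 13, against 14.5% of all pairs. Trp53 was higher in 5 and lower in 1 of 14, Cdkn2c higher in 3 of 13, Rb1 higher in 3 of 14 and Cdkn1b higher in 2 of 14. Mdm2 was lower in 3 and higher in 1 of 14, and Cdkn2d lower in 1 of 14. Classes of one library share that library, so these counts are not independent of each other. Over all cells Cdkn1c was 2.92, 2.74, 9.76 and 12.8 CPM (1.99 ± 0.27 SE, edgeR adjusted p = 0.465) and Cdkn2b 13.1, 17.8, 3.98 and 3.63 CPM (-2.03 ± 0.27 SE, edgeR adjusted p = 0.465), with no overlap for either gene. Of all genes counted over all cells, 18.1% were higher and 13.0% lower without overlap.

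**Figure D5:**
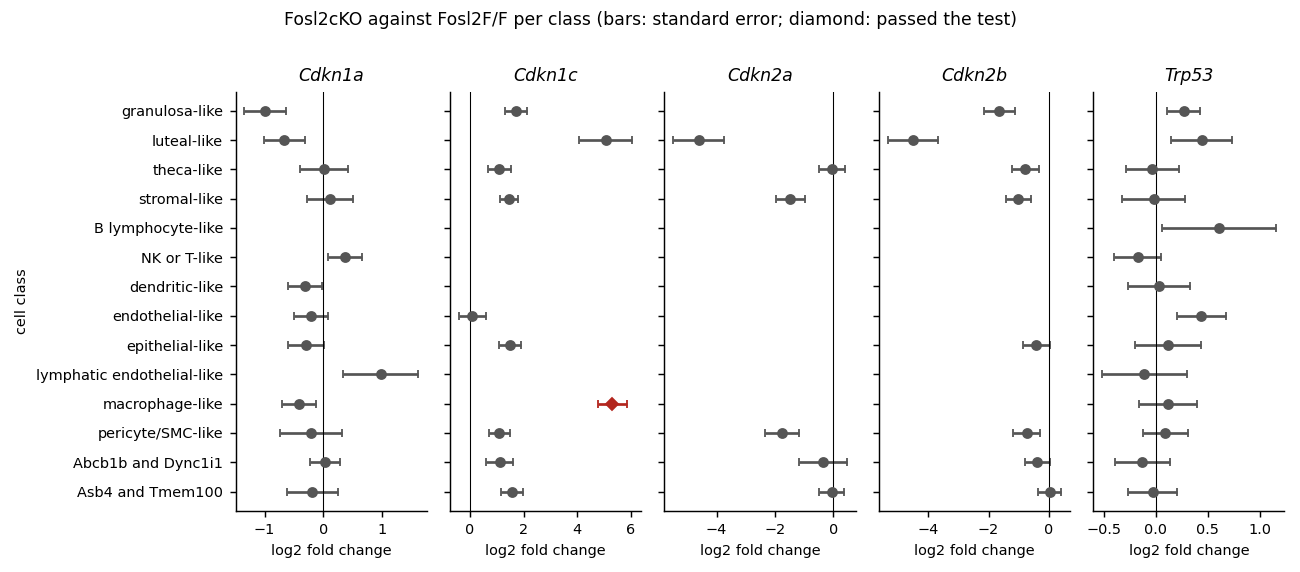
Log2 fold change, Fosl2cKO over Fosl2F/F, with its standard error, of Cdkn1a, Cdkn1c, Cdkn2a, Cdkn2b and Trp53 in each class in which the gene was tested, with a diamond where the test was passed. Cdkn1c lies above 0 in every class tested (0.09 to 5.31) and passes only in macrophage-like cells, where 1 cell in each Fosl2cKO library holds most of the UMIs.

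Whether the condition acted differently on GC-like cells, the class that the Cre transgene targets, and stromal-like cells was tested directly. The measure was the difference of their log2 fold changes in limma. The test called 0 of 13826 genes (0.0%), with 552 at an unadjusted p under 0.05. It called 0 of the 9 members tested, each with an adjusted p of 0.999. The difference was -0.80 ± 0.60 (SE) for Cdkn1a, 0.18 ± 0.47 for Cdkn1c and 0.45 ± 0.33 for Cdkn2c, so a difference between these classes was not detectable with 2 libraries per genotype.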

How the data were processed

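Ovaries of Fosl2F/F and Fosl2cKO mice were profiled with the 10x Genomics 3′ assay, and the authors deposited a matrix of UMI counts per gene and cell for each of 4 libraries, 2 per genotype. The submitters' notes name Cell Ranger, Seurat 4.1.0 and GRCm38, whereas the file header names Cell Ranger 7.1.0 and the methods another version. The methods also name removal of ambient RNA, and whether the deposited counts passed through it is not given in the sources used here.

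A cell needed 500 genes and more than 1000 UMIs, of which less than 10% could be mitochondrial and less than 0.1% haemoglobin. Doublets were scored with Scrublet (scanpy 1.11.5) and removed at 0.8% per 1000 cells (6199 cells). Libraries were integrated and clustered with Seurat 5.3.0 and sctransform 0.4.2 (3000 features without the members, 30 dimensions, resolution 0.8, or 0.5 within GC-like cells), and clusters were named from fixed markers. Counts were summed per library and class with at least 20 cells per library, scaled by TMM and tested by quasi-likelihood in edgeR 4.0.16 after filterByExpr, with Benjamini-Hochberg adjustment over all genes tested. The threshold was an adjusted p under 0.1 together with a log2 fold change over 0.25 in size. The list contrast had library as a term, and the difference between GC-like and stromal-like cells was tested in limma 3.58.1. DESeq2 1.42.0, other filters and clusterings, a replicate block and leaving out each library were alternatives. The tests were tried on simulated data. Levels are TMM-scaled CPM, except that marker sums, GC-like levels without the highest cells and counts of libraries that do not overlap used plain UMI totals. Plain totals were also used for levels in single luteal-like clusters and for levels of rich cells and cells with none within single subclasses. No column of the deposited files was left out. The labels do not say whether the replicate numbers pair the genotypes. In GC-like cells the correlation of deviations between libraries of the same number was -0.145 over 17259 genes, which cannot settle it.

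All 10 members are described. The other genes named are the ones of lowest p in each context list, the leading genes of clusters and the 3 genes of most similar pattern, and genes called by only a few tests were named after their values were seen. The members and lists were chosen with earlier results of these data known.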

Additional observations from a re-analysis of the deposited data

Results flagged for a closer look

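For 3 genes, 2 groups of cells moved in opposite directions in all of their libraries, and in each case the difference was not tested. Of all genes counted in at least 2 groups, 41.0% did so over the 14 classes and 33.7% over the 11 GC subclasses, so nothing is read from these 3 about the members. Cdkn2d had a log2 fold change, Fosl2cKO over Fosl2F/F, of 0.54 in the GC subclass led by Dgkb and Rrad and -0.46 in mitotic-like Top2a cells, a difference of 1.002. Trp53 had 0.44 in luteal-like cells and -0.18 in NK or T-like cells, a difference of 0.62. Mdm2 had 0.19 in the unnamed class led by Abcb1b and Dync1i1 and -0.48 in epithelial-like cells, a difference of 0.67.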

How the results depend on the processing

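In GC-like cells, 125 of 135 alternative values of the members' fold changes kept their direction and their side of the threshold, and so did 103 of 112 in the list contrast. Cdkn1b, Cdkn2d and Rb1, all near 0 in GC-like cells, changed sign. Without 1 library Cdkn1b ran from -0.25 to 0.40 and was below 0 without Fosl2F/F replicate 1 (-0.25) or Fosl2cKO replicate 1 (-0.24), and it was -0.0059 with under 5% mitochondrial UMIs. Cdkn2d ran from -0.30 to 0.10 and was above 0 without Fosl2F/F replicate 1 (0.10) or Fosl2cKO replicate 2 (0.01). Rb1 ran from -0.14 to 0.36 and was below 0 without Fosl2F/F replicate 1 (-0.14) or Fosl2cKO replicate 1 (-0.01). In the list contrast Cdkn1b ran from -0.032 to 0.074 and was below 0 without Fosl2F/F replicate 1. The cause was not tested. With a library left out, its genotype has 1 library, which is assumed to vary like the other genotype.

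The 1 gene called in GC-like cells became 171 with DESeq2, 284 with no filter on low counts, 13 with the replicate block and 0 to 168 without 1 library (168 without Fosl2cKO replicate 1, 104 without Fosl2cKO replicate 2, 0 without either Fosl2F/F replicate). Members called there were 1 with DESeq2, 1 with no filter (Cdkn1c in both) and 0 to 1 without 1 library (Cdkn1c without Fosl2cKO replicate 1, log2 fold change 2.10, adjusted p = 0.0233). Context genes called were 2 with DESeq2, 3 with no filter, 1 with the replicate block and 0 to 2 without 1 library (2 without Fosl2cKO replicate 1, 1 without Fosl2cKO replicate 2). In GC subclasses, member calls were 1 with DESeq2, 9 with no filter, 9 with the crossed pairing and 0 to 3 without 1 library (3 without Fosl2cKO replicate 1, 0 without Fosl2F/F replicate 1). In the other classes they were 5 with DESeq2, 9 with no filter, 2 with over 2000 UMIs, 2 with under 5% mitochondrial UMIs, 4 with the crossed pairing and 1 to 6 without 1 library (6 and 3 without Fosl2cKO replicates 1 and 2, 4 without Fosl2F/F replicate 2). Cdkn1c in macrophage-like cells passed in each fit without 1 library (4.796 to 6.42), but each of these fits still held a Fosl2cKO library with 1 dominant cell, and without the highest cell of each library the gene was not tested. In the list contrast 5 to 7 members passed under all alternatives run, and Cdkn2b lost its call at 2 list UMIs (-0.49), with DESeq2 (-0.78), with no filter (-0.67), at an adjusted p under 0.05 with no minimum fold (-0.73) and in the 3 fits without 1 library that tested it (-0.66 to -0.58). The test between GC-like and stromal-like cells called 0 members under every alternative run. Of all genes, DESeq2 called 0.537% in the GC subclasses together and from 0% to 3.55% in the other classes. Under the other settings the share of all genes was not counted in these groups, so nothing is read from those member counts.

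Whether the replicate numbers pair the genotypes is not given, and the replicate block called 0 members in GC-like cells. The crossed pairing, added after the data were seen, called 1 gene and 0 members in GC-like cells. The alternative with doublets kept was not run. Depth limits Cdkn2a, Cdkn2b and Cdkn1c in GC-like cells, where a library held as few as 1, 19 and 50 UMIs.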
